A study of Mus musculus with 6 samples.

Results

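The 10 genes described here supply energy and oxygen to muscle fibres: the creatine kinase genes Ckm, Ckmt2 and Ckb, the glycogen and glycolysis genes Pygm, Eno3 and Pgam2, the nucleotide gene Ampd1, the myoglobin gene Mb, the fatty acid carrier gene Fabp3 and the mitochondrial gene Chchd10. They were taken by symbol from the platform annotation, which lists them under 11 probe sets (2 for Fabp3 and 1 for each other gene), out of 19938 genes with 1 symbol. The study used C2C12 cells, an established wild type mouse myoblast line that fuses into myotubes when serum is lowered. All cells were grown with 10% fetal bovine serum, switched at about 90% density to 2% horse serum, and transfected on day 1 of differentiation, either with a control siRNA (siCon) or with an siRNA against mouse H19 (simH19), with RNA taken 40 h later. There were 3 arrays in each group, and no source used here says whether the 3 wells were separate cultures. The p-values therefore reflect array-to-array spread that could be purely technical. Because RNA came from whole wells, a change in how many cells had differentiated and a change in RNA per cell cannot be told apart.

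Working muscle buffers its ATP with phosphocreatine: cytosolic creatine kinase regenerates ATP at the myofibrils, while the mitochondrial form charges creatine where ATP is made. Glycogen phosphorylase, phosphoglycerate mutase and enolase exist as muscle forms that replace widely expressed counterparts as myoblasts become fibres, AMP deaminase drains AMP during hard work, and myoglobin stores oxygen. H19 is an imprinted long noncoding RNA of developing muscle, and the comparison asks which transcripts differ when it is depleted.

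H19 itself had no probe set of its own in the annotation, so depletion was checked on the probe set that is shared by Mir675, a microRNA hosted by H19, with Supt6. Control values were 12.21, 12.22 and 12.27, and H19 siRNA values were 10.38, 10.28 and 10.37, a fall to 26.9% of control (limma adjusted p = 1.80e-05). Values are log2 expression per probe set, and differences are H19 siRNA minus control siRNA. Over 21559 units (1 probe set per gene, and probe sets with several symbols), 43 passed a limma adjusted p of 0.05, 27 higher and 16 lower, and the median difference was 0.01. The H19 siRNA replicate 2 array correlated least with the others, at a mean r of 0.996 over all rows. The cell label was set against 10 markers of myoblasts and myotubes, called myotube markers below, among them Myod1, Myog and Des. All 10 lay above the median level of all units, whereas 2 of 25 markers of adipocytes, macrophages, endothelium, cardiomyocytes, neurons and glia did (Cd68 and Nkx2-5). Probe affinities differ between genes, so this is a rough description and no test of identity.

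Chchd10 was the one gene of the 10 that passed the test, and it was higher with H19 siRNA. The percentage of all units called higher was 0.125%, and 0 of the 10 genes were called lower, against 0.0742% of all units. Of the other 9 genes, 8 had a positive and 1, Pygm, a negative difference, and their adjusted p-values ran from 0.143 to 0.997. At an unadjusted limma p under 0.05, 3 of the 10 genes were higher (Chchd10, Mb and Ckb), against 6.61% of all units, and 0 were lower, against 4.25%. With an intensity trend and robust variance in the fit, which called 1.12% of units higher, Chchd10 remained the 1 of the 10 genes called. Differences above 0 were also the more common over all units, at 58%. Over the 10 genes the median difference was 0.08 on the log2 scale, beside 0.01 over all units. After centring each array on its median, 8 of 10 genes had a positive difference, since Ckmt2 moved from 0.00 to -0.02, and the median was 0.07, beside -0.0028 over all units.

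**Figure D1:**
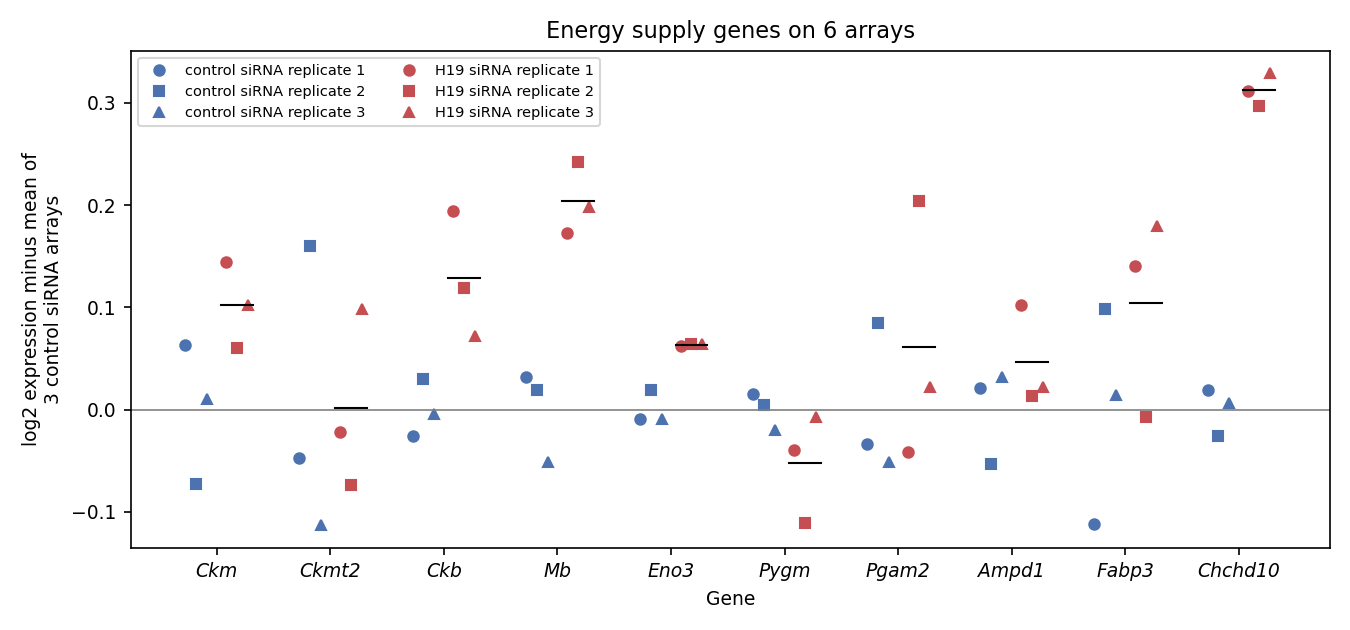
Log2 expression of each of the 10 genes on each of the 6 arrays, minus the mean of the 3 control siRNA arrays of that gene (vertical axis), with control arrays in blue, H19 siRNA arrays in red, marker shapes for replicate numbers and black bars for the H19 siRNA mean. The H19 siRNA points of Chchd10, Mb, Ckb and Eno3 lie above all their control points, and the bar of Chchd10 is at 0.31.

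Chchd10 encodes a small protein of the mitochondrial intermembrane space, and mutations in the human gene cause myopathy and motor neuron disease. Its 3 control values were 8.56, 8.52 and 8.55, and its 3 H19 siRNA values were 8.86, 8.84 and 8.87. The arrays of each group lay close together and the groups were apart by 0.28 between the nearest arrays. The mean went from 8.54 ± 0.02 to 8.86 ± 0.02 (SD, n = 3 each). Chchd10 thus rose by 0.31 on the log2 scale (SE 0.03, 95% interval 0.23 to 0.39), or 1.24-fold (limma adjusted p = 0.0279). Without any 1 array the difference stayed between 0.30 and 0.32, but the call was lost. The adjusted p ran from 0.0748 without H19 siRNA replicate 2 to 0.175 without control siRNA replicate 2. Those fits have fewer degrees of freedom and called 1 to 21 units, against 43 with all 6 arrays. The loss is therefore not particular to Chchd10. The adjusted p of Chchd10 was 0.0923 when all 35556 rows were tested together, and over all 15 alternatives it ran from 0.00249 to 0.253.

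Mb, the oxygen-storing haem protein of muscle, read 8.42, 8.41 and 8.34 with control siRNA and 8.56, 8.63 and 8.59 with H19 siRNA. All 3 H19 siRNA arrays were above all control arrays, with 0.14 between the nearest. The difference was 0.20 (SE 0.04, 95% interval 0.11 to 0.30), or 1.15-fold, and the limma adjusted p of 0.143 did not pass. When only units at or above the median level were tested, the adjusted p was 0.0274, with 1.35% of units called higher in that test, and its range over the alternatives was 0.0274 to 0.444.

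Groups did not overlap, with H19 siRNA higher, for 4 of the 10 genes (Chchd10, Mb, Ckb and Eno3), against 10.5% of all units, and with H19 siRNA lower for 0 of the 10, against 7.09%. The highest of the 6 arrays was an H19 siRNA array for 8 of the 10 genes, and the lowest was a control array for 9. The matching shares over all units were not computed, and 58% of all units had a difference above 0. Averaged over the 10 genes after subtracting each gene's own mean, the control arrays stood at -0.06, -0.02 and -0.07 and the H19 siRNA arrays at 0.05, 0.03 and 0.06. The genes were chosen with earlier results of these data known, so these counts describe the 10 genes and are no test of them.

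The sequences upstream of 4 genes are shown. Chchd10 passed the test, and Mb and Ckb have a limma interval above 0 but did not pass. Ckm, which did not pass either, is the muscle creatine kinase with which Ckb is compared. Each run is the 250 bases before a start listed by RefSeq on GRCm38.p6, 5′ to 3′ on the gene's strand, at chr10:75932880-75933129 (+) for Chchd10, chr15:77022728-77022977 (-) for Mb, chr12:111672339-111672588 (-) for Ckb and chr7:19410844-19411093 (+) for Ckm. For Mb the most downstream of 3 listed starts was used. Capitals mark letters that match the E-box pattern CANNTG, which sites of MyoD and related factors share, and, in Ckb, the MEF2 consensus. Whether any factor binds the marked stretches was not tested.
Chchd10: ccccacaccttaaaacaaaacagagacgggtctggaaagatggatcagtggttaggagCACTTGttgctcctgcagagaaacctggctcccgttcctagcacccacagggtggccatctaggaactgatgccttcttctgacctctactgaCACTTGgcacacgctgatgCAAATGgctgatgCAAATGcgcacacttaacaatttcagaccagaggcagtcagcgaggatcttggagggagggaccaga
Mb: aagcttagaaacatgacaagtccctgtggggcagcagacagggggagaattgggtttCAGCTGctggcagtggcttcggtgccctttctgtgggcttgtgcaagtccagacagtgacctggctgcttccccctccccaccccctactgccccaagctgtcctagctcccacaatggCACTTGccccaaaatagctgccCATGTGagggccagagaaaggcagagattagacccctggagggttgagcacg
Ckb: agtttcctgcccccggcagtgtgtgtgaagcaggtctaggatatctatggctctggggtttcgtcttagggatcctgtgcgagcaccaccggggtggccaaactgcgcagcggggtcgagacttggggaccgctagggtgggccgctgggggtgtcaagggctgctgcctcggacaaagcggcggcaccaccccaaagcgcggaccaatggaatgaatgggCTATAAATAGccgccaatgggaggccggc
Ckm: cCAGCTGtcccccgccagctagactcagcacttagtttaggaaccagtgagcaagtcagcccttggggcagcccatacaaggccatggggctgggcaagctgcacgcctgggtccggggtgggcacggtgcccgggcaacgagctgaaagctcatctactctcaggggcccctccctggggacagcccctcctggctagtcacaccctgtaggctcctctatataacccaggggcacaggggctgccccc
Of the 10 genes, 9 matched the RefSeq promoter table, and Ampd1 did not.

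At least 1 CANNTG, which reads the same on both strands, stood in 8 of the 9 windows, the exception being Ckb, and in 66.2% of 32851 windows of the same length in the table. Chchd10 held 4, at 192, 99, 80 and 67 bases before its start, and Mb held 3. The form CAGCTG, which is also a CANNTG, stood in 5 of the 9 windows (Ckm, Ckmt2, Mb, Pygm and Pgam2) and in 13.0% of all windows. It was not among the 4 in Chchd10. The MEF2 consensus, searched on both strands, was found in Ckb, 29 bases before its start, and in Pgam2, and in 1.7% of all windows. A match describes the letters only, and the muscle enhancer of Ckm lies farther upstream than this window.

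Both cytosolic creatine kinases had positive differences of similar size, neither past the test. Ckm, the muscle form, read 10.51, 10.37 and 10.45 with control siRNA and 10.59, 10.51 and 10.55 with H19 siRNA. The groups overlapped, because control replicate 1 lay at the level of H19 siRNA replicate 2. The difference was 0.10 (SE 0.05, limma adjusted p = 0.497), and 0.07 without control siRNA replicate 2. Ckb, the brain-type form that myoblasts already express, read 11.03, 11.08 and 11.05 with control siRNA and 11.25, 11.17 and 11.13 with H19 siRNA. All 3 H19 siRNA arrays were higher, by 0.04 between the nearest, and replicate 1 was the highest. The difference was 0.13 (SE 0.04, 95% interval 0.03 to 0.23, adjusted p = 0.353), and RefSeq lists the pseudogenes Ckb-ps1 and Ckb-ps2, whose transcripts a probe set could share.

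Ckmt2, the sarcomeric mitochondrial creatine kinase, had a dim probe set, below the 30th percentile of unit levels. It read 5.58, 5.79 and 5.51 with control siRNA and 5.61, 5.55 and 5.73 with H19 siRNA. The values were mixed between groups, with a difference of 0.00 (95% interval -0.19 to 0.19), and its sign changed with the scaling. Of the 4 other phosphocreatine genes measured, 0 passed and the median difference was 0.05. Gamt, which makes creatine, differed by 0.18 (SE 0.04) from 10.24 ± 0.05 to 10.42 ± 0.04 (SD, n = 3 each; limma adjusted p = 0.214), and passed only in the fit with an intensity trend. Slc6a8, the creatine transporter, differed by 0.07 and Gatm, the first enzyme of creatine synthesis, by 0.04, or 0.06 without control siRNA replicate 2.

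**Figure D2:**
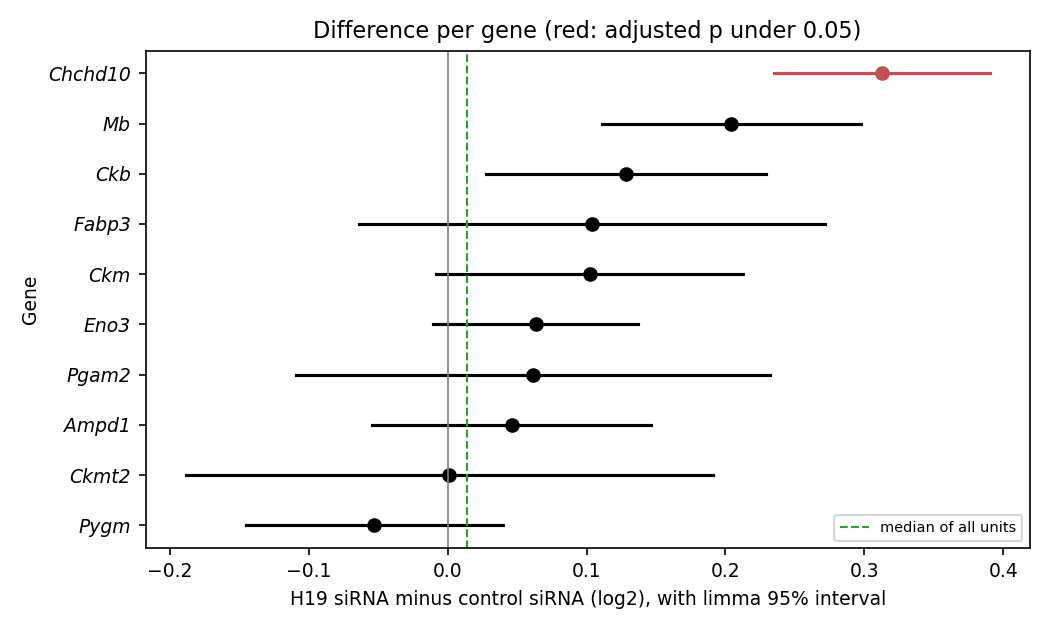
Difference between H19 siRNA and control siRNA on the log2 scale (horizontal axis) for each of the 10 genes, with limma 95% intervals from 3 arrays per group; the dashed line is the median of all units, 0.01. Chchd10 (red) is the gene that passed, and the intervals of Chchd10, Mb and Ckb lie above 0.

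Among the glycolytic enzymes neither Eno3 nor Pgam2 passed. Eno3, the muscle enolase, read 12.83, 12.86 and 12.83 with control siRNA and 12.90 on each H19 siRNA array. The 3 H19 siRNA arrays lay within a SD of 0.0013, the smallest of any group of the 10 genes, and all were above the control arrays. The difference was 0.06 (SE 0.03, 95% interval -0.01 to 0.14, limma adjusted p = 0.523). Pgam2, the muscle phosphoglycerate mutase, read 6.53, 6.65 and 6.52 with control siRNA and 6.53, 6.77 and 6.59 with H19 siRNA. Replicate 2 was the highest array of each group and the groups overlapped. The difference of 0.06 (95% interval -0.11 to 0.23) rested on H19 siRNA replicate 2, without which it was -0.01. It was 0.11 without H19 siRNA replicate 1, 0.10 without control siRNA replicate 2 and 0.04 without control siRNA replicate 3.

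Of 18 other glycolysis and sugar or lactate transport genes measured, 0 passed, 8 had a positive difference and the median was -0.0016, beside 0.01 over all units. The smallest p-values were those of Aldoc, the brain-type aldolase, at 0.15 (limma adjusted p = 0.523), Eno2, the neuronal enolase, at -0.11 (adjusted p = 0.541) and Pfkp, the platelet-type phosphofructokinase, at -0.07 (adjusted p = 0.598). They went both ways. Leaving out 1 array moved each nearer to 0 or farther from it, depending on the array. Aldoc ran from 0.08 without control siRNA replicate 1 to 0.20 without control siRNA replicate 3. Eno2 ran from -0.07 without control siRNA replicate 3 to -0.15 without H19 siRNA replicate 1. Pfkp ran from -0.04 without H19 siRNA replicate 2 to -0.09 without H19 siRNA replicate 3.

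Pygm, the muscle glycogen phosphorylase that is lacking in McArdle disease, was the 1 gene of the 10 with a negative difference. It read 8.70, 8.69 and 8.67 with control siRNA and 8.65, 8.58 and 8.68 with H19 siRNA. H19 siRNA replicate 3 reached the control range, so the groups overlapped. The difference was -0.05 (SE 0.04, 95% interval -0.15 to 0.04, limma adjusted p = 0.677), and -0.02 without H19 siRNA replicate 2. Of 16 other glycogen genes measured, 0 passed, 11 had a negative difference and the median was -0.03. Groups did not overlap for 3 of them, all lower with H19 siRNA, beside 7.09% of all units: Phka1 (-0.11, adjusted p = 0.400) and Phkg2 (-0.09, adjusted p = 0.534, and -0.06 without H19 siRNA replicate 2), subunits of phosphorylase kinase, which switches glycogen phosphorylase on, and the phosphoglucomutase gene Pgm2 (-0.05). Phkg1, the muscle catalytic subunit of that kinase, had a difference of -0.06, from a level of 4.87.

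Ampd1, the muscle AMP deaminase, read 6.20, 6.12 and 6.21 with control siRNA and 6.28, 6.19 and 6.20 with H19 siRNA. The groups overlapped, and the difference was 0.05 (SE 0.04, 95% interval -0.05 to 0.15, limma adjusted p = 0.745). It was 0.02 without H19 siRNA replicate 1 or without control siRNA replicate 2. Its probe set lay below the median level of all units, as did those of Pgam2 and Ckmt2. Of 16 other genes of adenine nucleotide handling and AMP-activated kinase, 0 passed, with a median difference of 0.02. The smallest p-values were those of the mitochondrial adenylate kinase Ak3 (-0.09, adjusted p = 0.480), the kinase subunit Prkag1 (-0.08, adjusted p = 0.485) and the adenylate kinase Ak4 (0.09, adjusted p = 0.525).

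Fabp3, the heart-type fatty acid binding protein, read 8.83, 9.04 and 8.95 with control siRNA and 9.08, 8.93 and 9.12 with H19 siRNA. Control replicate 2 lay above H19 siRNA replicate 2, so the groups overlapped. The difference was 0.10 (SE 0.07, 95% interval -0.06 to 0.27, limma adjusted p = 0.646). It was 0.05 without control siRNA replicate 1, 0.07 without H19 siRNA replicate 3 and 0.16 without H19 siRNA replicate 2. The second Fabp3 probe set followed the first, with 8.75, 8.96 and 8.89 against 9.01, 8.91 and 8.97, and a difference of 0.09 (limma adjusted p = 0.738 over all rows). RefSeq lists a pseudogene, Fabp3-ps1, and which transcripts each of these probe sets measures was not tested. Of 15 other fatty acid genes measured, 0 passed and the median difference was 0.0026. Acadm, the medium-chain acyl-CoA dehydrogenase, had the smallest p, at -0.13 (SE 0.04, adjusted p = 0.305), and passed only in the fit with an intensity trend. Acadl, the long-chain acyl-CoA dehydrogenase, differed by 0.07 and the adipocyte form Fabp4 by -0.12, or -0.06 without control siRNA replicate 3.

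The mitochondrial list set beside Chchd10 had 14 measured genes, of which 0 passed, with a median difference of 0.01. Its members related to Chchd10 by the shared domain differed by -0.04 (Chchd3), -0.07 (Chchd4) and 0.05 (Chchd6), with limma adjusted p-values of 0.749, 0.736 and 0.651. The smallest p-values were those of Ppargc1a, a coactivator of mitochondrial genes, at 0.15 (SE 0.04, adjusted p = 0.257), and of the muscle forms of cytochrome c oxidase subunits Cox6a2 at 0.13 (adjusted p = 0.304) and Cox8b at 0.14 (adjusted p = 0.394). All 3 H19 siRNA arrays lay above all control arrays for these 3 of the 14 genes, beside 10.5% of all units. For Cox8b the nearest arrays were only 0.004 apart. Genes picked for small p-values tend to have groups apart, so the lack of overlap adds little to the p-values. The Ppargc1a probe set lay below the median level of all units. As the mean of its probe sets, Ppargc1a differed by 0.12 (limma adjusted p = 0.617). Of the globins related to Mb, Cygb differed by 0.07 (0.02 without H19 siRNA replicate 2) and Ngb by -0.06 (-0.01 without H19 siRNA replicate 3), and 0 passed. In all, 85 of the 96 genes written in the 7 lists were measured, and 44 had a positive difference, beside 58% of all units. In limma 0 of the 85 passed in either direction, beside 0.199% of all units. With so few units called, a count of 0, here or in a single list, does not show a lack of response. Groups did not overlap for 12 of the 85 with H19 siRNA higher and 8 with H19 siRNA lower, beside 10.5% and 7.09% of all units. At an unadjusted limma p under 0.05, 4 were higher (Gamt, Ppargc1a, Cox6a2 and Cox8b) and 2 lower (Phka1 and Acadm), beside 6.61% and 4.25% of all units.

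**Figure D3:**
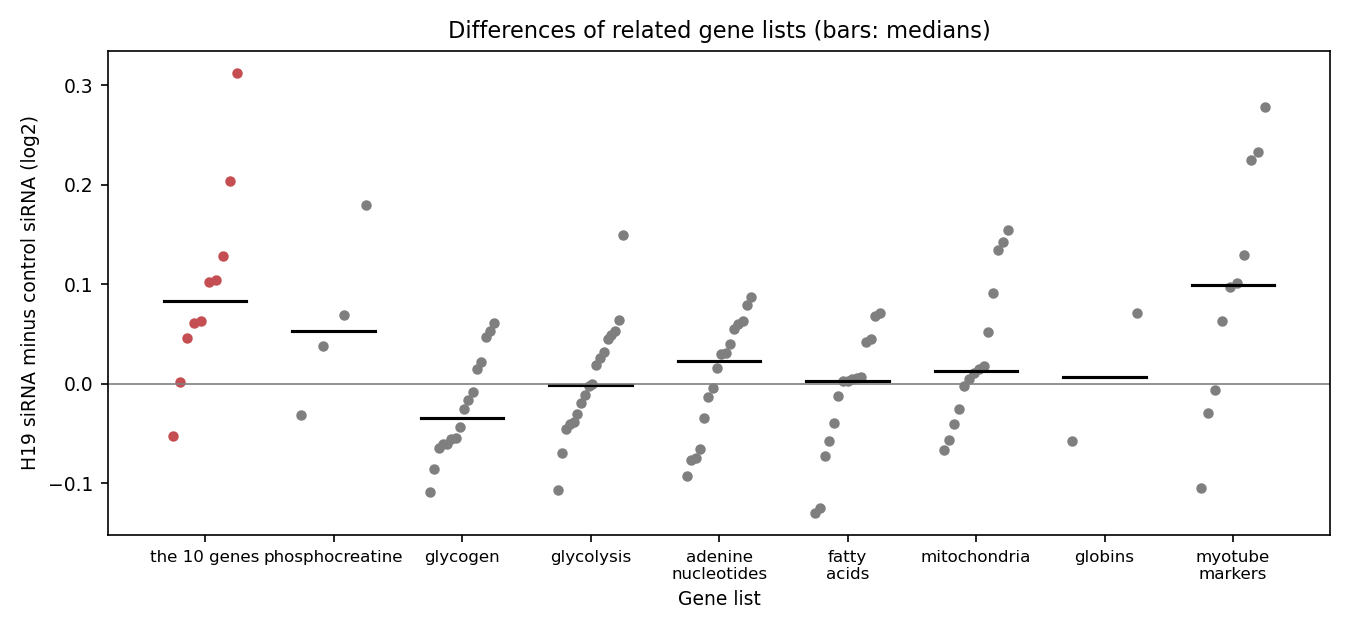
Difference between H19 siRNA and control siRNA (log2, vertical axis) for the 10 genes in red and for the genes of 7 related lists and the myotube markers in grey, 1 point per gene, with black bars at the medians. The medians are 0.08 for the 10 genes, -0.03 for glycogen genes and 0.10 for myotube markers.

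Most myotube markers also had positive differences. Of the 10 markers 7 had H19 siRNA arrays all above the control arrays and 0 the reverse, beside 10.5% and 7.09% of all units. In limma 0 passed, with 6 higher and 0 lower at an unadjusted p under 0.05 (6.61% and 4.25% of all units), and the median difference was 0.10. Their summed signal on the linear scale was 30358 to 30677 with control siRNA and 32420 to 33183 with H19 siRNA. Cdh15, the M-cadherin of myoblasts, differed by 0.28 (limma adjusted p = 0.0519), Myod1 by 0.23 (adjusted p = 0.0965) and Myog by 0.22 (adjusted p = 0.0779), the last pair being transcription factors that drive muscle genes. These 3 markers passed with an intensity trend and with either filter on dim units. Cdh15 also passed with array weights and after a second quantile normalisation. Those settings called more units in all than the 43 of the reported fit. The counts were 435 with the trend, 111 and 266 with the filters, 70 with weights and 58 after the normalisation. In the other alternatives none of the 3 markers passed, among them all rows, the replicate number as a block and any array left out. The embryonic myosin Myh3 (-0.03), the troponin Tnnc2 (-0.10) and the cardiac actin Actc1 (-0.0064) had negative differences. Of 6 markers of proliferating myoblasts 0 passed in limma and 2 were higher at an unadjusted p under 0.05, with Pax7 at 0.24, Myf5 at 0.13 and Mki67 at -0.08, or -0.04 without H19 siRNA replicate 2. Pax7 and Myf5 passed only with an intensity trend. Of the 25 markers of other cell types 0 passed in limma and 1 (Cd68, lower) had an unadjusted p under 0.05, and the list medians ran from -0.02 for endothelium through -0.0054 for macrophages, -0.0014 for neurons and glia and 0.0037 for cardiomyocytes to 0.10 for adipocytes. The 5 adipocyte markers all lay below the median unit level, with a summed linear signal of 293 to 306 with control siRNA and 306 to 354 with H19 siRNA. The part of any of these markers in the results above was not tested.

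Muscle isoforms and their counterparts were compared within each array, to ask whether the muscle form of an enzyme responded differently from a related form. Of 8 pairs 6 could be made, since Eno1 and Chchd2 had no probe set with 1 symbol. For Ckm against Ckb the difference between their responses was -0.03 (95% interval -0.20 to 0.15). For Ckmt2 against Ckmt1, the ubiquitous mitochondrial form, it was 0.03 (-0.40 to 0.46), and for Pygm against the brain form Pygb 0.01 (-0.13 to 0.15). For Pgam2 against Pgam1 it was 0.04 (-0.19 to 0.26). Among these pairs the interval was narrowest for glycogen phosphorylase and widest for the dim mitochondrial creatine kinases.

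The 2 remaining pairs had the smallest p-values. Ampd1 against Ampd2 gave 0.06 (95% interval -0.02 to 0.14) and Fabp3 against Fabp5, the epidermal form, gave 0.10 (-0.07 to 0.27), each with a two-sided exact permutation p of 0.2 and 0.6 after Benjamini-Hochberg adjustment over the 6 pairs. The other 4 pairs had exact permutation p-values of 0.7 to 0.9. With 3 against 3 arrays such a test cannot go below 0.1. In every one of the 6 pairs the groups overlapped and the interval included 0, so no difference between isoforms was detectable, and the intervals do not show that the forms responded alike.

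**Figure D4:**
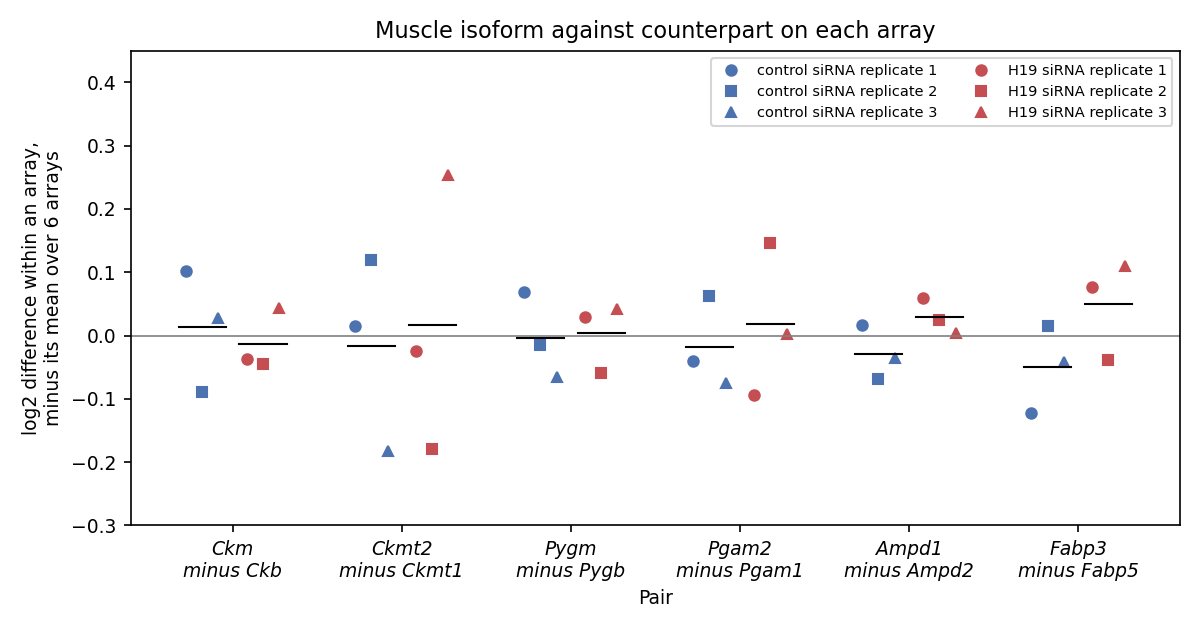
Log2 value of the muscle isoform minus that of its counterpart on each array, minus the mean over the 6 arrays (vertical axis), for 6 pairs, with control arrays in blue, H19 siRNA arrays in red and black bars for the group means. The groups overlap in all 6 pairs, and the widest scatter is that of Ckmt2 minus Ckmt1.

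Genes with array profiles most like those of Mb, Ckm and Chchd10 were listed by the root mean square distance of their 6 values, each gene centred on its own mean, among 9696 named genes at or above the median level. Chchd10 was added to this comparison after its value was seen. Nearest to Mb were Clcn5 (a chloride-proton exchanger, distance 0.02), Slc1a4 (a neutral amino acid transporter, 0.02) and Bcl7a (a chromatin remodelling subunit, 0.03), with differences of 0.20, 0.22 and 0.18. Nearest to Ckm were Syvn1, Vac14 and Cntrob, at distances of 0.01 to 0.02. Nearest to Chchd10 were Ctrb1, a chymotrypsinogen (distance 0.01, difference 0.31, limma adjusted p = 0.0279), Fbln7, a fibulin (0.02, difference 0.29, adjusted p = 0.0425), and Cdh15 (0.03). These distances describe 6 arrays in 2 groups and carry no test.

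**Figure D5:**
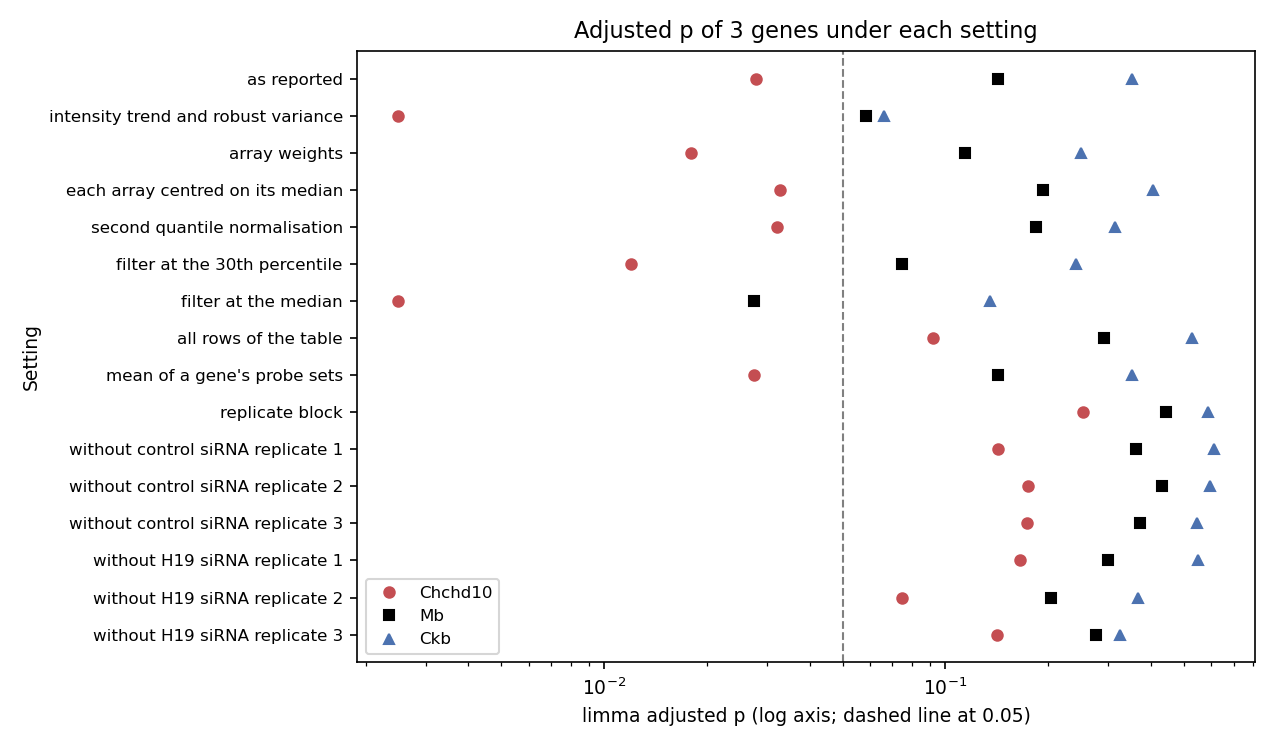
Limma adjusted p (horizontal, log axis) of Chchd10, Mb and Ckb under the reported setting and 15 alternatives (vertical axis), with a dashed line at 0.05. Chchd10 lies left of the line in the reported setting and in 7 alternatives, and right of it in the others, where its adjusted p reaches 0.253; Mb lies left of it in 1 alternative and Ckb in 0.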

How the data were processed

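Expression was measured on 6 Affymetrix arrays, 3 with control siRNA and 3 with H19 siRNA, grouped by their titles. The deposited log2 values per probe set came from RMA, run by the authors, per the submitters' processing notes, in Affymetrix Expression Console; its version is not given in the sources used here. RMA corrects background and normalises by quantiles, which compresses differences near background. Scanner intensities were not used here, so precision rests on the number of arrays. Values lay between 2.97 and 14.6.

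GEO's platform annotation named probe sets (21789 of 35556 rows with 1 symbol, 1621 with several, 12146 unlisted). Each gene was read from its probe set with the highest mean. The test was limma 3.58.1 (R 4.3.3; lmFit, then eBayes) over 21559 units, two-sided, without covariates or filter, with Benjamini-Hochberg adjustment and a threshold of 0.05. Adssl1 and Adss stood for the list entries Adss1 and Adss2. The fit was tested on simulated data, but no outcome is given here, so that test vouches for none of the calls above. The genes and lists were chosen with earlier results of these data known. Named were the 10 genes, the isoform pairs, the 3 smallest p-values of each list and the 3 nearest profiles; others (Phkg1, Chchd3, Chchd4, Chchd6, Des, Myh3, Tnnc2, Actc1, Cd68, Nkx2-5) were named after their values were seen. No 2 arrays were identical (pairwise r 0.9958 to 0.9975). Same-numbered arrays did not deviate together, so numbers were not used as pairs.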

Additional observations from a re-analysis of the deposited data

How the results depend on the processing

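The unit count, the calls in the 10 genes and the related energy lists, and the median difference were recomputed under 15 alternatives. So were the differences of the 10 genes and of most other genes named above, except where a level filter removed a gene. Isoform pairs were recomputed only with a second quantile normalisation, the mean of a gene's probe sets, the replicate block and 1 array left out. Marker list counts, overlap counts, nearest profiles and motif counts were not recomputed. The count of units called, 43, became 435 when the fit had an intensity trend and robust variance, 70 with array weights, 111 after removing units under the 30th percentile of level, 266 after removing those under the median, and 11 over all rows. The count of the 10 genes called higher, 1, was 2 with the filter at the median (Chchd10 and Mb) and 0 over all rows. With an intensity trend, 1 phosphocreatine gene (Gamt) and 1 fatty acid gene (Acadm) passed, against 0. With the replicate number as a block, 3 units and 0 of the 10 genes passed, and the adjusted p of Chchd10 was 0.253; deviations of same-numbered arrays correlated at -0.04, -0.09 and -0.26, and 0 of 3 control arrays correlated best with their own number. Leaving out 1 array at a time gave 1 to 21 units, 0 to 0 of the 10 genes, and a median difference of the 10 genes from 0.0576 (without control siRNA replicate 1) to 0.0931. These fits also have fewer degrees of freedom, and units at an unadjusted p under 0.05 ran from 1665 to 2612, against 2340. Isoform pair differences ran from -0.0775 to 0.0184 for Ckm and Ckb, -0.0854 to 0.1305 for Ckmt2 and Ckmt1, -0.0222 to 0.0446 for Pygm and Pygb and -0.0286 to 0.0916 for Pgam2 and Pgam1, changing sign in each. Among single genes, Ckmt2 reversed to -0.0153 after median centring and -0.0370 after a second quantile normalisation, and ran from -0.0555 to 0.0812 with an array left out; Fabp5 reversed to -0.0118 after median centring. With an array left out, Fabp5 ran from -0.0155 to 0.0210, Pgam2 from -0.0101 to 0.1131, Ampd2 from -0.0258 to 0.0064 and Ckmt1 from -0.0920 to 0.0379. The cause of these changes was not tested. Chchd10 kept its positive sign in all 15 alternatives, from 0.30 to 0.32, and Mb from 0.18 to 0.22.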
